A study of Homo sapiens with 5 samples.

Results

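The comparison is of one RNA-seq library, RM, against another, LD. Both were made from HT1080 cells, an established human fibrosarcoma line, embedded in gels of rat-tail type I collagen at 2 mg/ml and 10 cells per mm3 and incubated for 24 h. LD received no cytokine. RM received IL-6 and IL-8 together in a ratio of 5 to 2. The 2 libraries are part of a series of 5 on how cytokines shared between cells in a matrix relate to cell state. The series also holds 1 library each from matrices at the same density with IL-6 alone and with IL-8 alone, and 1 from untreated cells at high density that was not used here. The design text calls the cytokines recombinant, while a protocol label speaks of conditioned medium, and their concentrations are not given in the labels. Genes were included when their reads summed to at least 10 over RM and LD, and the ribosomal entry RNA5-8S5 was left out, which gave 10652 of the 27189 genes listed.

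IL-6 binds its receptor IL6R together with the shared subunit gp130 (IL6ST), which activates JAK kinases and then STAT transcription factors, chiefly STAT3. SOCS3, an inhibitor of the receptor complex, is a textbook target of STAT3. IL-8 (CXCL8) is a chemokine that signals through the G-protein-coupled receptors CXCR1 and CXCR2, and both cytokines are known for their part in inflammation and in the movement of tumour cells.

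Since there was 1 library per condition, the differences below could not be checked in replicates. What could be tested was read sampling. A gene was called when a two-sided exact binomial test of its reads in RM and LD had a Benjamini-Hochberg adjusted p under 0.05 and the scaled levels differed at least 2-fold. Such a test compares 2 libraries, not 2 conditions, and the 95% counting intervals given below (exact, Clopper-Pearson) cover counting error only. Amplified reads without molecular identifiers are not independent molecules.

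LD held 7118545 reads and RM 6838104, of which RNA5-8S5 took 76.9% and 79.0%. This left 1645539 and 1434366 reads for all other genes. Vimentin (VIM), the intermediate filament of mesenchymal cells, had 10796 reads in LD and 5518 in RM, and 9 of 12 mesenchymal markers passed the filter on reads. Of the markers of other cell types, the leucocyte gene PTPRC and the endothelial genes VWF and KDR were at 0 in both libraries. CD68, a lysosomal protein that marks macrophages, had 404 and 356 reads. Of the epithelial markers, EPCAM had 0 reads in both libraries and desmoplakin (DSP) had 182 and 91.

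Of the 10652 genes, 3461 were called (32.5%). In RM 1807 were called higher (17% of the genes tested) and 1654 lower (15.5%). The same rule called 1790 of 10970 genes between IL-6 and LD (16.3%) and 2922 of 10622 between IL-8 and LD (27.5%). These comparisons share the LD library, and their counts were not tested against each other. Without the fold limit, 5092 genes (47.8%) differed between RM and LD beyond read sampling. Among the called genes, 822 were at least 4-fold higher and 689 at least 4-fold lower, with genes at 0 reads set against 3 reads. Where 0 reads count as past any fold, the counts are 822 and 859. No read was counted in LD for 72 of the genes called higher, and none in RM for 243 of those called lower.

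**Figure D1:**
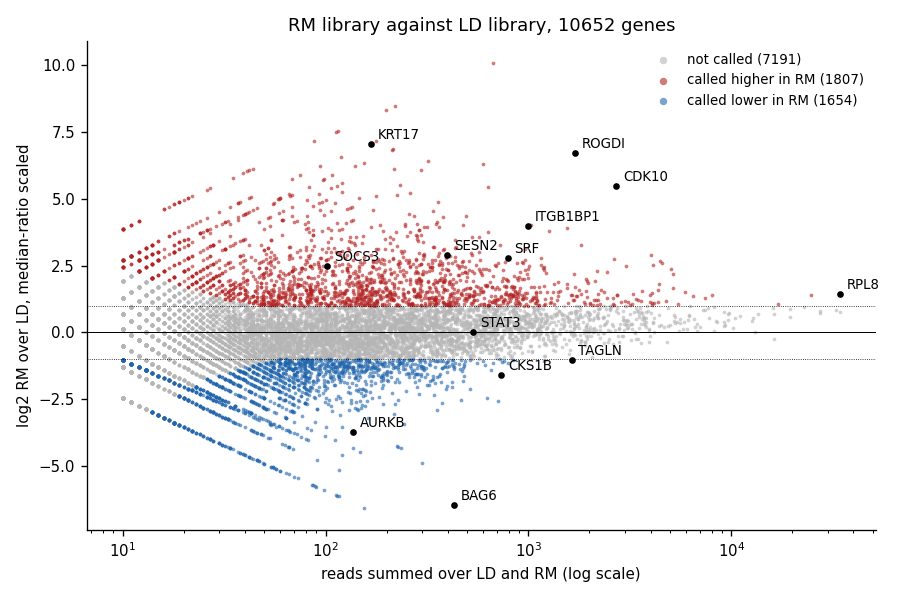
Each point is 1 gene. The horizontal axis gives its reads summed over LD and RM on a log scale, and the vertical axis the log2 ratio of RM over LD after median-ratio scaling, with genes at 0 reads in 1 library set against 3 reads. Dotted lines mark 2-fold. The 1807 red points and 1654 blue points are the called genes, and at the right end, among the genes with most reads, nearly all coloured points lie above 0.

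The scaling carries weight here. The median over genes put RM at 0.614 of LD, while the totals outside RNA5-8S5 put it at 0.872, a shift of 0.51 on the log2 scale. Scaled to those totals, 1075 genes were called higher (10.1%) and 2986 lower (28%), so that 26.5% of the calls were higher in place of 52.2%. All 1654 genes called lower under the median ratio were also lower under the totals. Of the 1807 called higher, 1075 were. Genes that lost their call with the totals are pointed out below. In LD the genes called higher held 14.2% of all reads other than RNA5-8S5, and in RM 31.8%. For those called lower the shares were 7.56% and 1.66%.

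Calls also moved with read number and base composition. Among genes with 10 to 19 summed reads, 9.04% were called higher and 13.4% lower. Among genes with 1000 to 4999 reads the shares were 24.3% and 0.43%. The GC content of 1 transcript per gene was known for 93.9% of the genes tested. In the eighth of lowest GC 7.35% were called higher, against 26.6% in the eighth of highest GC, while 15.2% and 15.8% were called lower. The median log2 ratio went from -0.40 to 0.25 over these eighths in RM, from -0.35 to 0.30 in IL-8 and from -0.01 to 0.10 in IL-6. Centring the ratios within eighths of GC content left 3141 calls among the 10001 genes of known GC (1623 higher and 1518 lower), and centring within eighths of summed reads left 3304 (1867 and 1437). Both settings were added after seeing the data, and their counts stand beside the lists they move.

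**Figure D2:**
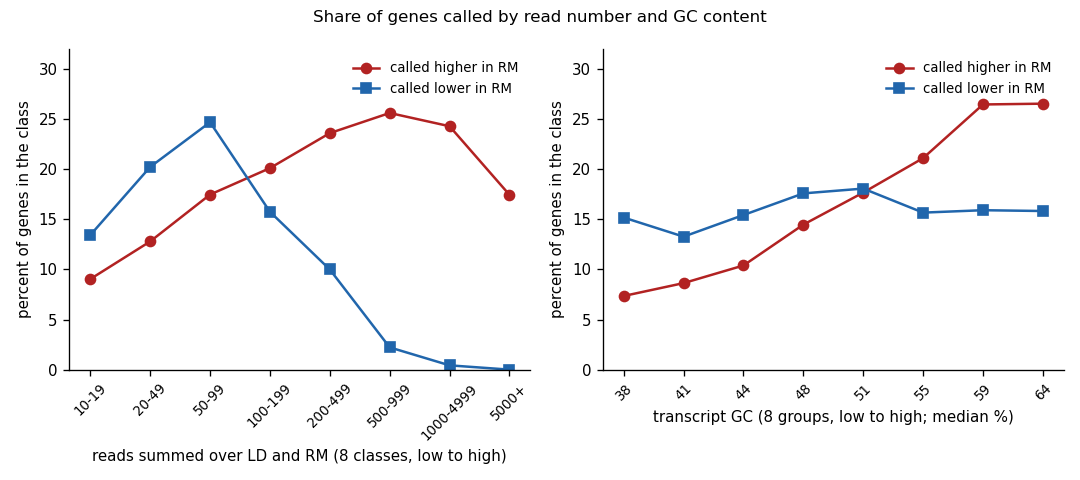
Left, the percent of genes called higher (red circles) or lower (blue squares) in RM in 8 classes of summed reads. Right, the same in 8 equal groups of transcript GC content, labelled by their median. The share called higher climbs from 7.35% to 26.6% over the GC groups, and the share called lower falls to 0 among genes of 5000 reads or more.

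Promoter sequences of 4 genes of mitosis called lower in RM are shown first, because mitosis genes made up the list with the largest share called lower under the median ratio (34.7%, values below). A short element, TTTGAA, known as the cell cycle genes homology region or CHR, is common in promoters of such genes. It was searched on both strands in windows from 250 bases before to 50 bases after the RefSeq start (GRCh38.p14). The element was in 15.4% of 27305 such windows, in 9.03% of the 8194 matched to a gene tested, and in 28 of the 42 matched members of the mitosis list (66.7%). It was in 8 of the 15 matched members called lower, so the members not called held it as well. Capitals mark the element, as TTCAAA where it lies on the other strand.
CDC20 (activator of the anaphase-promoting complex; chr1:43358731-43359030, plus strand): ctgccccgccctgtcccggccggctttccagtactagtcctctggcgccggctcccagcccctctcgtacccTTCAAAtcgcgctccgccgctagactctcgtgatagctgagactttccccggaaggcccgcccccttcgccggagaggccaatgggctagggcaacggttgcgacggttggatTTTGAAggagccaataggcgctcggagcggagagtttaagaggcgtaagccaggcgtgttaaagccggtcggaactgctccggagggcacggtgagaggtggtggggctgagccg
CKS1B (cyclin-dependent kinase subunit; chr1:154974431-154974730, plus strand): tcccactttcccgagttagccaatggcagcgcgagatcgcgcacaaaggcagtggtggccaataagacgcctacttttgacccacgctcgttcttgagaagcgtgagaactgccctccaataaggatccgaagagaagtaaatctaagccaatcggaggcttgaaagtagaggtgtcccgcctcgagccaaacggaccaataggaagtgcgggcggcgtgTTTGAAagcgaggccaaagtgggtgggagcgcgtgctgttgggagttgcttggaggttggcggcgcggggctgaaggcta
CENPA (centromeric histone; chr2:26785806-26786105, plus strand): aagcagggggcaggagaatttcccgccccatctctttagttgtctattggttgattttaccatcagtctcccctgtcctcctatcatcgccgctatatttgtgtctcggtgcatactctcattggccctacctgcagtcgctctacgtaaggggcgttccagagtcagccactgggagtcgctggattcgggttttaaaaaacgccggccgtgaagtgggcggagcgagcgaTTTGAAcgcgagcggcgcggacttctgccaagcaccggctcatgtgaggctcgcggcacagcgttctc
CKS2 (paralogue of CKS1B; chr9:89310945-89311244, plus strand): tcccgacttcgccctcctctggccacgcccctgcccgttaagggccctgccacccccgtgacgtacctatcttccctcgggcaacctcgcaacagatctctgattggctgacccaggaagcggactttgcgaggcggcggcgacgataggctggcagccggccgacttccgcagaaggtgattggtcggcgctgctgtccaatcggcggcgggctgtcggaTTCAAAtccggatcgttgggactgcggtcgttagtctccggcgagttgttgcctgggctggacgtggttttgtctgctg
In CKS1B, CENPA and CKS2 the element began 30, 18 and 29 bases before the start. In CDC20 it occurred at 178 and 65 bases before it. A match is a description of the window and not a site of binding.

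The comparison asks which genes differ when both cytokines are present, so the genes of their own pathways are given first. No read was counted for IL6 in LD or RM, where a count of 0 allows up to 3 reads. IL6R had 9 reads in LD and 8 in RM. IL6ST had 70 and 48, a log2 ratio of 0.16 (95% interval -0.40 to 0.71), and its differences were within read sampling. By TPM, rescaled to 1000000 per library, IL6ST was at 16.6 in LD and 3.84 in RM, the opposite direction. JAK1 had 161 and 159 reads, a scaled ratio of 1.61 (1.28 to 2.02), below the limit of 2-fold. JAK2 had 1 read and 0.

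Of the 19 members of the IL-6 receptor and JAK-STAT list that could be tested, 4 were called higher (21.1%, against 17% of all genes) and 1 lower (5.26%, against 15.5%), with a median log2 ratio of 0.22 beside -0.03 over all genes. With total reads 2 were higher (10.5%, against 10.1%) and 3 lower (15.8%, against 28%). SOCS3 had 23 reads in LD and 79 in RM, and after scaling to LD the IL-6, IL-8 and RM libraries were at 27.4, 12.7 and 129. The RM library stood above the other 3 at this density. The log2 ratio of RM over LD was 2.48 (1.80 to 3.22; exact binomial test, adjusted p = 1.17e-14), and the call held under both scalings. With edgeR at an assumed biological coefficient of variation of 0.4, 0 of the 19 members were called, SOCS3 included.

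STAT3 itself had 331 reads in LD and 203 in RM, a log2 ratio of 0.00 (-0.26 to 0.26). Scaled to LD it was at 165 with IL-6 and 103 with IL-8. In scaled reads RM thus lay at the level of LD, and the single-cytokine libraries lay below both. By TPM, rescaled to 1000000 per library, STAT3 was at 72.3 in LD and 30.7 in RM. TPM is set against the library total and the read ratio against the median over genes, so these readings differ in scaling as well. STAT6, the transcription factor of IL-4 signalling, was higher in RM, with 419 and 724 reads (log2 1.49, 1.32 to 1.67), although its exons overlap LRP1 and NAB2 and the kit did not mark strand. STAT5A had 8 and 23 reads (log2 2.23, 1.02 to 3.60). STAT5B, its close paralogue, went the other way, with 101 and 17 (log2 -1.87, -2.70 to -1.12). STAT2, which carries interferon signals, had 34 and 51 reads (log2 1.29, 0.64 to 1.96), and scaled to LD it was also higher in IL-6 (126) and IL-8 (77.9). The calls of STAT6 and STAT2 were lost with total reads as the scaling.

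**Figure D3:**
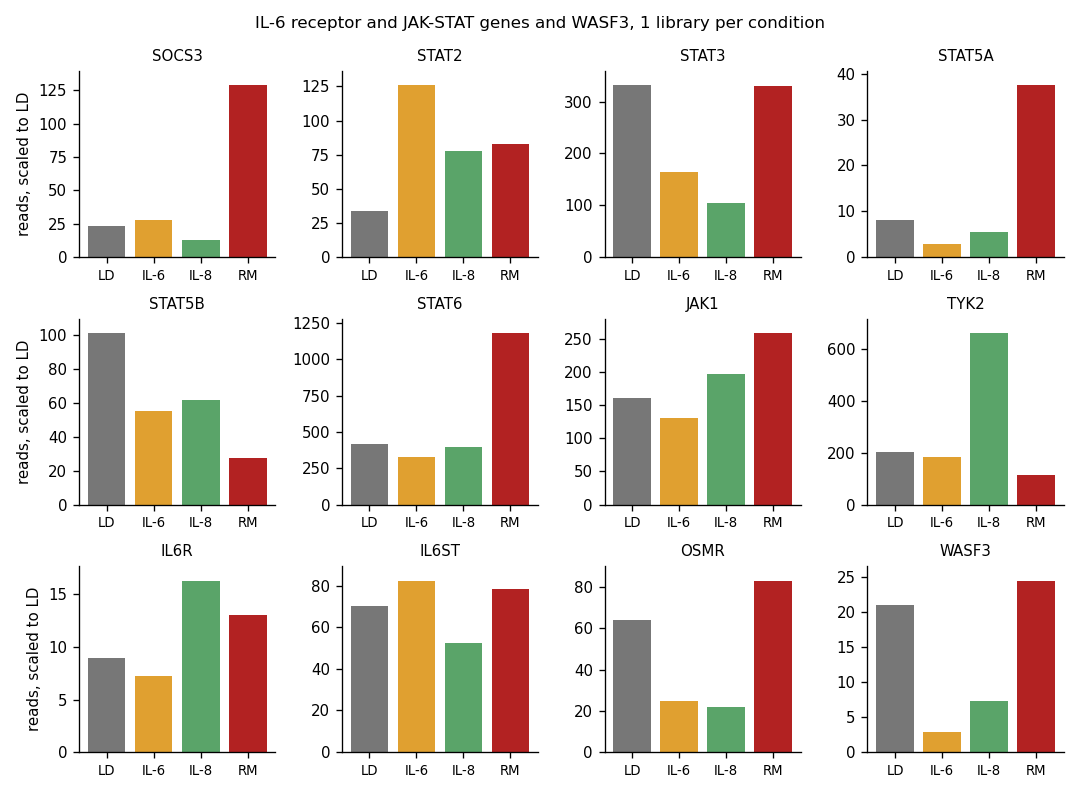
Bars give reads scaled to LD by the median ratio (vertical axes, each from 0) for 12 genes in LD, IL-6, IL-8 and RM, 1 library each and so without error bars. SOCS3, STAT5A and STAT6 are highest in RM, STAT3 is alike in LD and RM, and STAT5B is lowest in RM.

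On the list of STAT3 target genes, 3 of 14 were called higher (21.4%, against 17% of all genes) and 3 lower (21.4%, against 15.5%). Besides SOCS3, the survival factors BCL2L1 (392 and 582 reads, log2 1.27) and BIRC5 (150 and 282, log2 1.62) were higher. Those lower were the hypoxia factor HIF1A (237 and 50, log2 -1.54), the transcription factor CEBPB (64 and 12, log2 -1.71) and the kinase PIM1, with 14 reads in LD and 0 in RM, at least 2.86-fold lower. On only 14 genes, these shares were near those over all genes. BCL2L1 lost its call with total reads, under which 2 were higher (14.3%, against 10.1%) and 4 lower (28.6%, against 28%).

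For IL-8 the readout was thin. IL8 and CXCR1 had no read in either library, and CXCR2 had 0 in LD and 4 in RM. Of the 6 members of the chemokine list tested, 1 was called lower (16.7%, against 15.5% of all genes) and 0 higher. That gene was arrestin ARRB1, which binds activated G-protein-coupled receptors. It had 85 and 19 reads (log2 -1.46, -2.26 to -0.73; exact binomial test, adjusted p = 8.6e-05). Its paralogue ARRB2 had 123 and 47 reads (log2 -0.68) and was not called. GNAI2, the G-protein subunit that couples chemokine receptors, had 1680 and 1120 (log2 0.12, 0.01 to 0.23).

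Actin nucleation by the WAVE and Arp2/3 complexes drives the protrusions with which cells move through a matrix. WASF3 (WAVE3) had 21 reads in LD and 15 in RM, a log2 ratio of 0.22 (-0.84 to 1.24; exact binomial test, adjusted p = 0.87). It was at 2.89 and 7.25 scaled reads in IL-6 and IL-8, below LD and RM. The core subunits ACTR2 (133 and 68 reads, log2 -0.26) and ACTR3 (179 and 68, log2 -0.69) were not called. Of 27 members, 3 were called higher (11.1%) and 3 lower (11.1%), both below the shares over all genes. ARPC1A (538 and 858 reads, log2 1.38) and its paralogue ARPC1B (553 and 744, log2 1.13) were higher, and ARPC3 (80 and 21, log2 -1.23) and the WAVE complex subunit BRK1 (116 and 19, log2 -1.91) were lower. The complex did not move one way, and with total reads none of the 27 was called higher and 9 lower (33.3%, against 28%).

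Of the 45 tested genes for actin, tropomyosin and myosin, 5 were called higher (11.1%, against 17% of all genes) and 2 lower (4.44%, against 15.5%). TAGLN (transgelin), an actin-binding protein of contractile cells, had 1258 and 377 reads (log2 -1.03, -1.20 to -0.87). No other gene with at least 1000 reads in LD was called lower, against 78 genes of at least 1000 reads in RM called higher. Under the median ratio, though, genes of 1000 to 4999 summed reads had a median log2 ratio of 0.52, and those of 5000 or more 0.61. Smooth muscle actin ACTA2 was lower as well, with 59 and 18 reads. The myosin light chains MYL6 (1516 and 2474 reads, log2 1.41) and MYL9 (825 and 1376, log2 1.44) were higher, and both lost their call with total reads. Under that scaling 1 of the 45 was higher (2.22%, against 10.1%) and 8 were lower (17.8%, against 28%).

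Of 49 mitosis genes tested, 17 were lower (34.7%, against 15.5%) and 3 higher (6.12%, against 17%), with a median log2 ratio of -0.45. This share called lower was the largest among the 37 lists under the median ratio. It was second to hypoxia targets with total reads and with at least 50 summed reads (42.4% against 50%), and below 3 other lists when centred within eighths of summed reads (26.5%). It was also below another list by TPM, with no fold limit and at 4-fold. The same held with the whole interval beyond 2-fold and with edgeR at either assumed variation. Centred within eighths of GC content, it was level with STAT3 targets (28.6%). CKS1B, whose promoter is printed above, had 611 reads in LD and 125 in RM. After scaling, IL-6, IL-8 and RM were at 222, 207 and 204, so all 3 cytokine libraries lay below LD. Its log2 ratio in RM was -1.58 (-1.87 to -1.31).

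AURKB, the kinase of the chromosomal passenger complex, had 131 and 6 reads (log2 -3.74, -5.22 to -2.58). It was at 105 scaled reads in IL-6 and 330 in IL-8, so that RM was the lowest of the 4 libraries. CDC20 had 261 and 78 reads (log2 -1.04, -1.42 to -0.67), and the kinase AURKA 193 and 49 (log2 -1.27). CENPA had 64 and 2 (log2 -4.30, -7.37 to -2.38), ESPL1 (separase) 71 and 9 (log2 -2.28), and the kinesin KIF20A 74 and 10 (log2 -2.18). These act from centromere assembly to cytokinesis. BIRC5 (survivin), a partner of AURKB in the same complex, was higher, as were the kinase TTK (25 and 42 reads, a call lost with total reads) and the phosphatase CDC25C (1 and 10 reads, log2 4.03, 1.21 to 9.47).

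Other genes that mark dividing cells differed less. MKI67 had 372 and 190 reads (log2 -0.26), TOP2A 193 and 72 (log2 -0.72) and CCNB1 72 and 45 (log2 0.03), and none was called. The median transcript GC of the list was 43.2%, against 49.3% over all genes tested. With ratios centred within eighths of GC content, 14 were lower and 3 higher, beside 1518 and 1623 of all 10001 genes. Within eighths of summed reads 13 were lower and 4 higher, beside 1437 and 1867 of all 10652 genes. With total reads 22 of 49 were lower (44.9%, against 28%), beside 62.5% of the hypoxia targets. With edgeR at the assumed variation of 0.4, 2 of the 49 were lower and 0 higher. That setting called 248 lower and 334 higher of all 10652 genes. Whether fewer dividing cells or less RNA per cell lay behind these values cannot be told apart in bulk libraries, and the same holds for each list below.

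DNA replication genes were split. Of 41 tested, 8 were called higher (19.5%) and 6 lower (14.6%), both near the shares over all genes. With total reads 5 were higher (12.2%, against 10.1%) and 11 lower (26.8%, against 28%). The helicase subunit MCM3 had 64 and 216 reads (log2 2.46, 2.05 to 2.89), while MCM2 of the same ring had 226 and 59 (log2 -1.23, -1.67 to -0.81). Thymidine kinase TK1 (114 and 274, log2 1.97), the primase-polymerase subunit POLA2 (99 and 194, log2 1.67) and the flap nuclease FEN1 (58 and 133, log2 1.90) were higher. Cyclin E (CCNE1) had 30 reads in LD and 0 in RM, at least 6.14-fold lower.

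**Figure D4:**
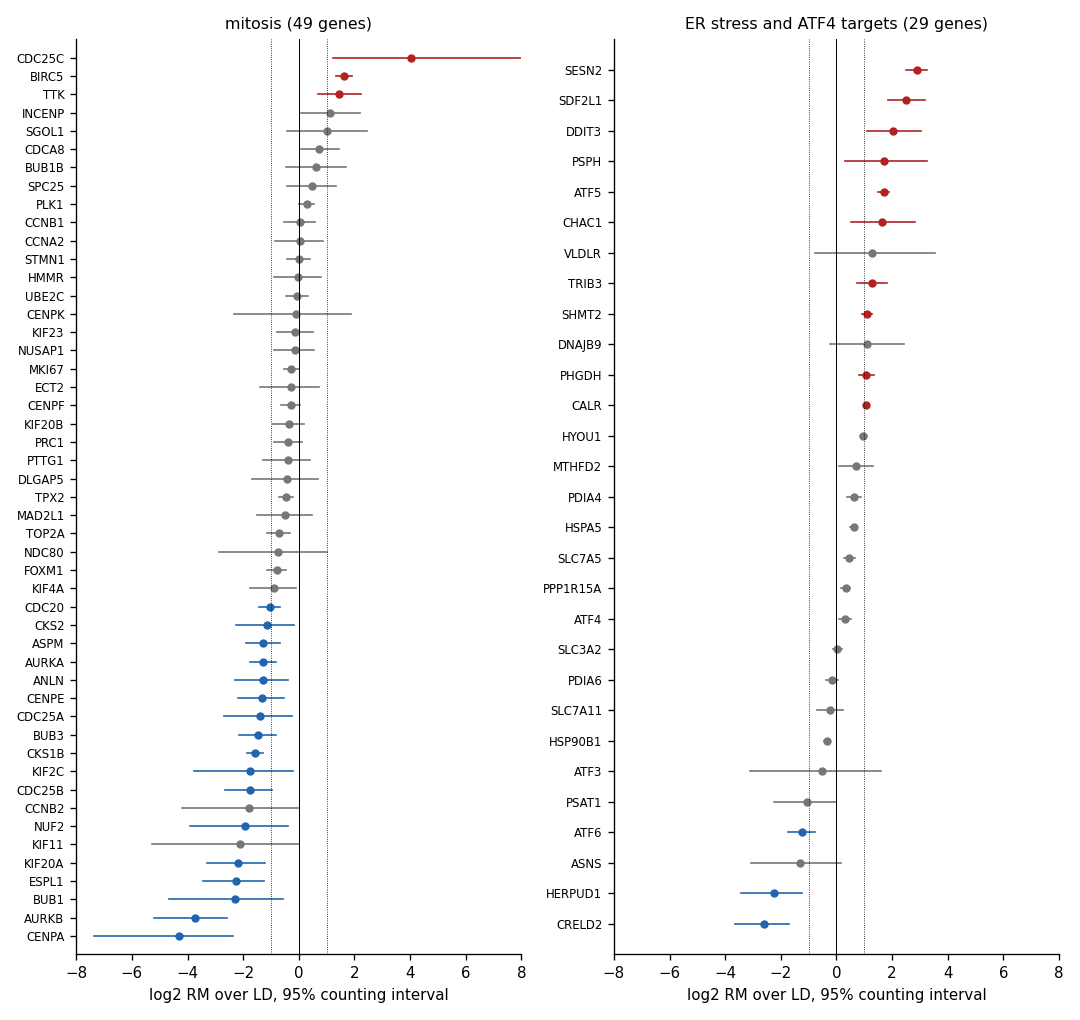
Each row is 1 tested member of the mitosis list (left) or of the list of ER stress and ATF4 targets (right). Points give the log2 ratio of RM over LD and lines its 95% counting interval, drawn no further than 8, in red for genes called higher, blue for lower and grey for the others, with dotted lines at 2-fold. In the left panel 17 of 49 rows are blue, from CDC20 down to CENPA, and in the right panel 10 of 29 are red, with SESN2 at the top.

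ATF4 is the transcription factor of the integrated stress response. Of 29 tested genes of ER stress and of ATF4, 10 were higher (34.5%, against 17%) and 3 lower (10.3%, against 15.5%), with a median log2 ratio of 0.64. The share called higher was the largest among the lists under the median ratio, but not with total reads, with at least 50 summed reads or after either centring. Of the other settings it stayed the largest only with TMM scaling and with the filter of at least 1 read. With edgeR at the assumed variation of 0.4, 1 of the 29 was higher and 0 lower. Centred within eighths of GC content, 6 of the 29 were higher (20.7%, beside 1623 of all 10001 genes), below the 36.8% of the noncoding RNAs. Within eighths of summed reads 7 were higher (24.1%, beside 1867 of all 10652 genes). The stress sensor SESN2 (sestrin 2) had 72 reads in LD and 325 in RM. After scaling, IL-6, IL-8 and RM were at 202, 150 and 530, so LD was the lowest of the 4. Its log2 ratio in RM was 2.88 (2.51 to 3.27; exact binomial test, adjusted p = 1.05e-69).

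SDF2L1, a cofactor of chaperones in the ER, had 26 and 91 reads (log2 2.51, 1.87 to 3.20). The transcription factors ATF5 (345 and 685, log2 1.69) and DDIT3 or CHOP (14 and 35, log2 2.03) were higher too. ATF5 shares exon bases with NUP62 and IL4I1, and DDIT3 with MARS. CHAC1, which degrades glutathione, had 11 and 21 reads (log2 1.64, 0.52 to 2.84). Its promoter window is shown because the letters TGATGNAA, found in ATF4 elements, occur in it 209 bases before the start, on the other strand (capitals).
CHAC1 (chr15:40953221-40953520, plus strand, GRCh38.p14): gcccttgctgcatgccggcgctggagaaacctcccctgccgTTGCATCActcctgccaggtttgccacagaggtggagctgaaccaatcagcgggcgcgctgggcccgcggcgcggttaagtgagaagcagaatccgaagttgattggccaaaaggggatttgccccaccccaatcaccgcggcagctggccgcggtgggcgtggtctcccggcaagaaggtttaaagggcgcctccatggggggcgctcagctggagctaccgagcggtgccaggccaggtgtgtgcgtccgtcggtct
These letters were in 3.67% of the 27305 windows, in 1.57% of the 8194 matched to a gene tested, and in 5 of 26 matched members of the list (19.2%). They were in 1 of the 8 matched members called higher, CHAC1 itself, and in 1 of the 3 called lower.

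Serine synthesis enzymes PHGDH (211 and 273 reads, log2 1.08) and PSPH (7 and 14, log2 1.70), the pseudokinase TRIB3 (52 and 77, log2 1.27), SHMT2 (464 and 609, log2 1.10) and calreticulin CALR (2406 and 3080, log2 1.06) made up the rest. With total reads 4 of the 29 were higher (13.8%, against 10.1%) and 5 lower (17.2%, against 28%), and CHAC1, PSPH, PHGDH, TRIB3, SHMT2 and CALR lost their call. ATF4 itself had 443 and 334 reads (log2 0.30). The 3 lower members belong to the ER stress side of the list, namely the sensor ATF6 (180 and 47, log2 -1.23), HERPUD1 (70 and 9, log2 -2.26) and the chaperone partner CRELD2 (109 and 11, log2 -2.60). On the ATF4 side, the serine synthesis enzyme PSAT1 (34 and 10, log2 -1.06) and ASNS (20 and 5, log2 -1.30) had negative ratios and were not called. The main chaperones HSPA5 (1119 and 1057, log2 0.62) and HSP90B1 (2647 and 1269, log2 -0.36) were not called.

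Immediate early genes answer signals within minutes and were sampled here after 24 h. Of 24, 5 were higher (20.8%, against 17% of all genes) and 2 lower (8.33%, against 15.5%). With total reads 4 were called each way (16.7%, against 10.1% higher and 28% lower over all genes). SRF, the serum response factor, had 153 and 639 reads. After scaling, IL-6, IL-8 and RM were at 277, 462 and 1041, with RM the highest of the 4 and a log2 ratio of 2.77 (2.51 to 3.03; exact binomial test, adjusted p = 5.92e-131). The orphan receptor NR4A1 (4 and 23 reads, log2 3.23), MAFF (30 and 97, log2 2.40), the phosphatase DUSP1 (4 and 15, log2 2.61) and the RNA-decay factor ZFP36 (4 and 12, log2 2.29) were higher, of which ZFP36 lost its call with total reads. EGR1, a classical target of SRF, had 17 and 1 (log2 -3.38, -8.77 to -0.71), and JUND 213 and 44 (log2 -1.57).

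Of 25 receptor tyrosine kinase and RAS-ERK genes, 6 were lower (24%, against 15.5%) and 1 higher (4%, against 17%). With either centring 4 were lower (16%), near the share over all genes, and with total reads 9 (36%, against 28%). The ephrin receptor EPHB4 (127 and 28 reads, log2 -1.48), the kinases ARAF (85 and 23, log2 -1.18) and MAP2K1 (56 and 7, log2 -2.30), the small GTPase NRAS (80 and 22, log2 -1.16), its exchange factor SOS1 (33 and 6, log2 -1.76) and the inhibitor SPRY4 (50 and 14, log2 -1.13) were the lower ones. They included activators and an inhibitor of the pathway. MAP2K2, the paralogue of MAP2K1, had 428 and 526 reads, at the limit of 2-fold with a log2 ratio of 1.00, and was not called with total reads.

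Hypoxia targets had the lowest median of all lists, -1.05 on the log2 scale, on 16 genes with a median of 48.5 summed reads. HIF1A, HILPDA, a lipid droplet protein (49 and 8 reads, log2 -1.91), the demethylase KDM3A (55 and 10, log2 -1.76) and the carbonic anhydrase CA12 (68 and 18, log2 -1.21) were the 4 called lower (25%, against 15.5%). With total reads 10 of the 16 were lower (62.5%, against 28%), so this count rests on the scaling. The glucose transporter SLC2A1 was higher (99 and 148, log2 1.28), a call lost with total reads. VEGFA had 50 and 31 reads and a log2 ratio of 0.01.

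Among 73 genes of oxidative phosphorylation, 17 were higher (23.3%, against 17% of all genes) and 6 lower (8.22%, against 15.5%). Subunits of complex I, the first enzyme of the respiratory chain, accounted for 15 of the 17, out of 37 tested, a count made after the values were seen. NDUFB8 had 74 and 292 reads (log2 2.68), NDUFA9 89 and 332 (log2 2.60), NDUFA2 289 and 903 (log2 2.35) and NDUFS8 267 and 661 (log2 2.01). Complex I subunits NDUFS3, NDUFV2 and NDUFC1 were lower, so the complex did not move as one. With total reads 12 of the 37 were higher and 8 lower, and of the other 36 members 0 were higher and 7 lower. Over all genes the shares with total reads were 10.1% higher and 28% lower.

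Mitochondrial ribosomal proteins had 15 of 74 higher (20.3%, against 17% of all genes) and 2 lower (2.7%, against 15.5%). MRPS25 had 64 and 233 reads (log2 2.57) and MRPL43 314 and 908 (log2 2.24). By TPM, MRPS25 was at 28.5 in LD and 37.7 in RM, a much smaller difference. MRPS25 shares exon bases with NR2C2, and MRPL43 with SEMA4G and TWNK. With total reads 11 were higher (14.9%, against 10.1% of all genes) and 12 lower (16.2%, against 28%). Of 76 cytosolic ribosomal proteins, 10 were higher (13.2%, against 17%) and 0 lower (against 15.5%). Their median log2 ratio was 0.29, beside -0.03 over all genes. RPL8, with 12753 and 21436 reads (log2 1.45, 1.42 to 1.49), and RPS28, with 9469 and 15375 (scaled ratio 2.65, 2.58 to 2.71), had the most reads, although RPS28 shares exon bases with NDUFA7. With total reads 0 of the 76 were higher (against 10.1%) and 4 lower (5.26%, against 28%). Centred within eighths of summed reads, 1 was higher and 2 lower. The direction of these calls followed the scaling, and under both scalings the shares called were below those over all genes.

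**Figure D5:**
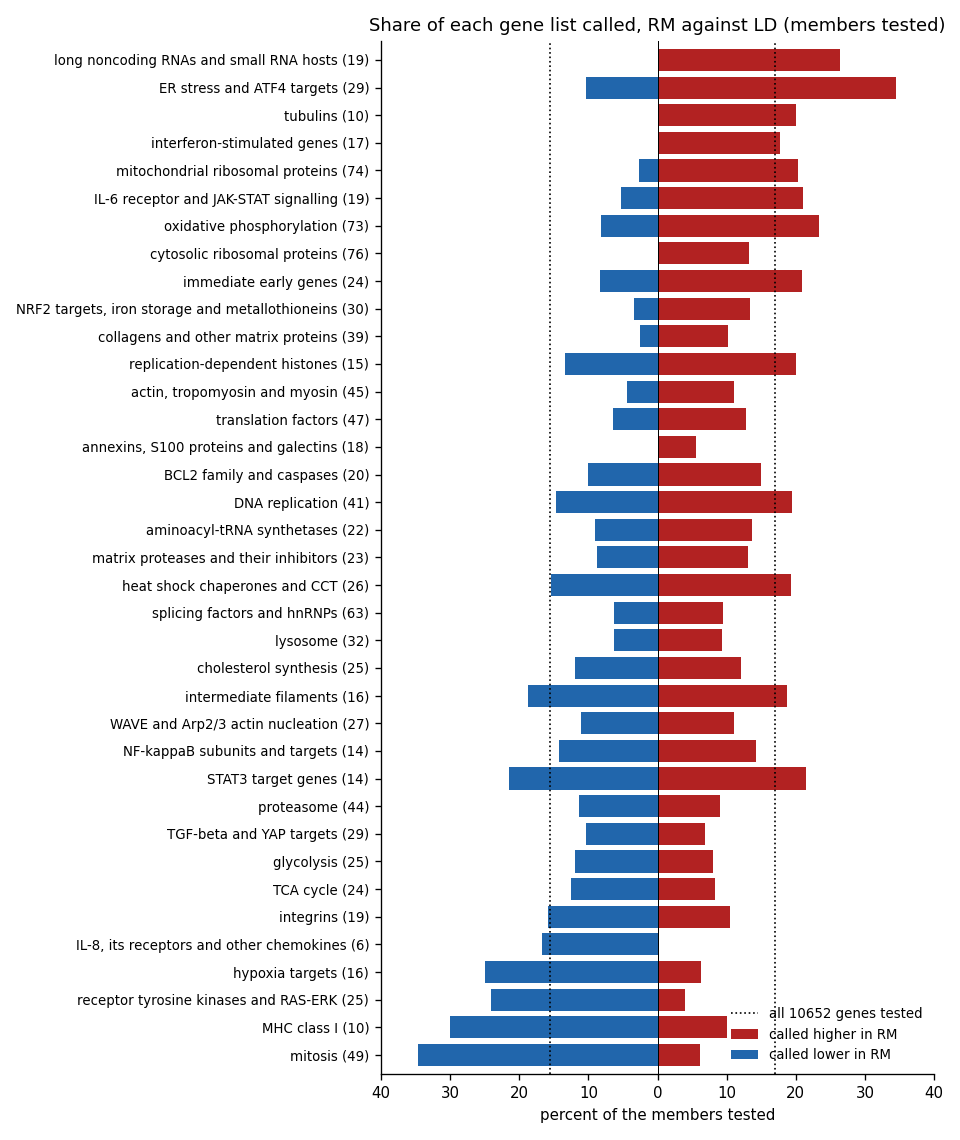
For each of 37 gene lists, the bar to the right gives the percent of tested members called higher in RM and the bar to the left the percent called lower, with the number tested in parentheses. Dotted lines mark the shares over all genes, 17% and 15.5%. Under the median ratio drawn here, ER stress and ATF4 targets reach furthest to the right (34.5%) and mitosis furthest to the left (34.7%), and neither is furthest with total reads.

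Keratins differed strongly in single genes. KRT17, a keratin of basal epithelia that is also found in tumours, had 2, 2, 4 and 165 reads in LD, IL-6, IL-8 and RM. Among these low-density libraries, RM alone held more than a few reads. The scaled ratio was 134 (36.6 to 1119). KRT19 went the other way with 132, 35, 24 and 6 reads in that order (log2 -3.76, -5.23 to -2.59), so that LD was highest and RM lowest. The paired keratins KRT8 (1248 and 1742 reads, log2 1.19) and KRT18 (191 and 317, log2 1.44), whose exons overlap in the annotation, lost their calls with total reads. Of 11 epithelial markers only 3 had enough reads to test. KRT19 and the mucin MUC1 (15 reads in LD and 0 in RM, at least 3.07-fold lower) were called lower, and DSP was not called. The share called lower was 66.7%, against 15.5% of all genes, on these 3 genes alone.

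Of 39 collagens and other matrix proteins 4 were higher (10.3%, against 17%) and 1 lower (2.56%, against 15.5%). With total reads 2 were higher (5.13%, against 10.1%) and 9 lower (23.1%, against 28%). Those higher under the median ratio included fibronectin FN1 with 997 and 1267 reads (log2 1.05, a call lost with total reads) and ECM1 with 34 and 74 (log2 1.83). Of 19 integrin genes 2 were higher (10.5%, against 17%) and 3 lower (15.8%, against 15.5%). ITGB1BP1, which binds the tail of integrin beta 1, stood out among integrin genes with 92 and 904 reads (95% interval of the scaled ratio 12.9 to 20.1). It was at 70.8 scaled reads in IL-6 and 131 in IL-8, so the high level was in RM only among these 4 libraries. Integrins ITGB3 (14 and 1 reads) and ITGB2 (26 and 0, at least 5.32-fold lower) were lower. Among proteases, the plasminogen activator PLAT had 12 and 46 reads (log2 2.64) and the membrane-bound MMP15 19 and 50 (log2 2.10), while the sheddase ADAM10 had 59 and 10 (log2 -1.86).

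The subunits NFKB1 (64 and 120 reads, log2 1.61) and NFKB2 (41 and 111, log2 2.14) of NF-kappaB were higher, and BIRC2 (161 and 30, log2 -1.72) was lower. Of 14 members of the list, 2 were called each way (14.3%, against 17% higher and 15.5% lower over all genes). Interferon-stimulated genes had 3 of 17 higher (17.6%, against 17%) and 0 lower (against 15.5%). With total reads 1 was called each way (5.88%, against 10.1% higher and 28% lower over all genes). Noncoding RNAs, many of which host or act with small RNAs, had 5 of 19 higher (26.3%, against 17%) and 0 lower (against 15.5%). With total reads 4 were higher (21.1%, against 10.1%) and 4 lower (21.1%, against 28%). RPPH1, the RNA of ribonuclease P, had 226 and 780 reads (log2 2.49, 2.28 to 2.71).

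Ranked by the bound of the interval nearest to no difference, among genes with at least 50 reads in the higher library, the 15 highest and 15 lowest genes were mostly present in 1 library and nearly absent from the other. Of the 15 highest, 11 had 3 reads or fewer in LD, and of the 15 lowest, 11 had 3 or fewer in RM. Exons of 15 of the 30 overlap another gene, and reads of overlapping genes cannot be told apart here. In the order LD, IL-6, IL-8 and RM, ROGDI had 26, 25, 335 and 1675 reads, a scaled ratio of 105 (71.4 to 161). The cyclin-dependent kinase CDK10 had 96, 587, 411 and 2621 reads, a ratio of 44.5 (36.3 to 55.1), and was above LD in all 3 cytokine libraries. The secreted serine protease HTRA3 had 6, 2, 2 and 314 reads, a ratio of 85.3 (38.7 to 234), with RM alone high.

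S100A3, a calcium-binding protein of hair cuticle, had 3, 13, 34 and 209 reads, and the metalloproteinase ADAMTS14 1, 1, 1 and 114. The zinc-finger gene ZBTB22 had 0, 0, 0 and 97, at least 52.7-fold higher, and C22orf15, which overlaps CHCHD10, 0, 0, 0 and 214, at least 116-fold higher. AGAP2 (12 and 585 reads) overlaps its antisense RNA, and FLJ37453 (1 and 669) overlaps SPEN. FAM189A1, TSSK3, NS3BP, LOC401010 and C1orf213 completed the 15 with KRT17.

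BAG6, a chaperone for tail-anchored proteins that overlaps APOM, had 430, 196, 508 and 0 reads in the same order, at least 88.0-fold lower. Of these 4 libraries only RM lacked it. The hedgehog signal transducer SMO had 229, 48, 131 and 7 reads (log2 -4.33, -5.66 to -3.26). The phospholipase PLA2G4C had 221, 7, 1 and 7, and the helicase RECQL5 218, 16, 7 and 7. For PLA2G4C and RECQL5 the level in LD was the one that stood apart. LZTS3 had 293, 28, 25 and 6 reads, and LPPR2 154, 11, 12 and 1, again with LD alone high. The dynein regulators NDE1 (57 and 0 reads) and NDEL1 (97 and 1), AIMP2 of the tRNA synthetase complex (115 and 2), MDGA1, TMCC2, C1orf51, AK5, TADA2A and BAHD1 completed the group, at 1 read each in RM for the last 6.

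Genes with many reads in both libraries give narrower intervals and were picked out after the values were seen. Of those called higher, the RNA-processing gene ZC3H18 (913 and 3536 reads, log2 2.66, 2.55 to 2.76), the HSP90 cochaperone CDC37 (962 and 3582, log2 2.60, 2.50 to 2.71), the transcription factor MAZ (1210 and 3814, log2 2.36, 2.27 to 2.46) and NT5DC2 (1346 and 3804, log2 2.20, 2.11 to 2.29) kept their calls with total reads. HNRNPC (3047 and 4942, scaled ratio 2.64) and EEF1G (7490 and 9569, log2 1.06) did not. Of those called lower with most reads, DNA polymerase lambda POLL had 639 and 66 (log2 -2.57, -2.96 to -2.20) and the phosphatase UBASH3B 561 and 63 (log2 -2.45, -2.85 to -2.07). The ubiquitin-conjugating enzyme CDC34 had 924 and 273 (log2 -1.05, -1.25 to -0.86). GAPDH (15819 and 17143 reads, log2 0.82) and cyclin D1 CCND1 (16703 and 17613, log2 0.78), both abundant, were beyond read sampling but under 2-fold. TUBB2C (153 and 808 reads, log2 3.11) is an older name of TUBB4B, which has an entry of its own (7436 and 8593, log2 0.91), so the split of reads between them is uncertain.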

How the data were processed

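HT1080 cells in collagen were profiled by RNA-seq in 5 conditions with 1 library each, of which LD and RM are compared here and IL-6 and IL-8 serve as background. RNA was primed on poly-A, the cDNA pool was amplified with phi29 polymerase, and Nextera XT libraries, which do not keep strand, were sequenced as single-end reads. According to the submitters' processing notes, CASAVA 1.4, FastQC, Bowtie2 2.3.1 and RSEM 1.2.25 were used with builds GRCh37/hg19. The annotation and the settings are not given in the sources used here. The authors deposited a whole-number read count per gene, not normalized, and a TPM value, which accounts for transcript length and library total. Samples were grouped by their labels. A cell-free control was not analysed here.

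RNA5-8S5 was removed, genes with at least 10 reads summed over the 2 libraries were kept, and counts were scaled by the median ratio over genes. The comparison, the gene lists and the rules for named genes were chosen with earlier results of these data known. Reads were tested by a two-sided exact binomial test with Benjamini-Hochberg adjustment over all genes (adjusted p under 0.05 and at least 2-fold). A gene at 0 reads was set against 3 reads. Genes were named by 3 rules. The first took the 15 highest and 15 lowest called genes with at least 50 reads in the higher library, ranked by the interval bound nearest to no difference. The second took up to 4 called members per list with most reads, and the 2 with most reads where fewer than 2 were called. The third took fixed genes of the cytokine and actin pathways. Further list members, the genes with most reads and those whose promoters are printed were chosen after their values were seen. No list was tested, and its counts are given beside those over all genes. A further list is not reported here. GC content came from GENCODE 29 transcripts matched by symbol, and promoters from RefSeq. Alternatives were total-read and TMM scaling, other filters and fold limits, the whole interval beyond 2-fold, TPM (rescaled to 1000000 per library, log2(TPM + 1)), and edgeR's likelihood-ratio test with an assumed biological coefficient of variation of 0.4 or 0.2. Centring within eighths of GC content or summed reads was added after seeing the data. The scripts were tested on simulated data. Work was done in R 4.3.3 with edgeR 4.0.16 and in Python 3.11.15 with scipy 1.17.1, statsmodels 0.14.6, pandas 2.3.3, numpy 2.4.6 and matplotlib 3.10.9.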

Additional observations from a re-analysis of the deposited data

How the results depend on the processing

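Of the 3461 calls (1807 higher, 1654 lower), the total was within 1.5 times under both total-read scalings, TMM, TPM, the filter of at least 1 read, no fold limit, an assumed variation of 0.2 and both centrings. It was 2219 (1149 higher, 1070 lower) with at least 50 summed reads, 2074 (1121 and 953) with at least 10 reads in each library, 1681 (822 and 859, with 0 reads past any fold) at 4-fold and 1666 (1084 and 582) with the whole interval beyond 2-fold, as these settings test or admit fewer genes. edgeR with an assumed biological coefficient of variation of 0.4 called 582 (334 and 248). Total reads outside RNA5-8S5 gave 1075 higher and 2986 lower, total reads with it 940 and 3510, and TPM 1027 and 3498. With no fold limit 2808 were higher. Of 219 named genes called, 159 kept call and direction with total reads outside RNA5-8S5, and 44 with edgeR at 0.4. The log2 ratio of IL6ST was -1.86 on the log2(TPM + 1) scale, against 0.16 on reads, and the cause was not tested. No paired analysis was possible because each condition had 1 library, and for the same reason no library could be left out. The value of 0.4 is an assumption and not a measured spread. Genes of few reads are limited by depth, and 3 reads were the smallest number against which a 0 was set.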
